A study of Mus musculus with 4 samples.

Results

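The genes of the cytosolic ribosomal proteins were examined in sorted mouse brain endothelial cells with and without Pd1, the receptor encoded by Pdcd1. A gene was a member when its symbol began with Rpl or Rps followed by a number, with the P-stalk genes Rplp0, Rplp1 and Rplp2 and with Rpsa added. Symbols with a hyphen, which mark pseudogenes, and the Rps6k kinases were left out. The rule found 87 of the 21578 genes in the tables, 52 of the large and 35 of the small subunit, and used no measured value. By annotation 83 of the 87 were protein-coding, and Rpl6l, Rps3a2, Rps3a3 and Rps4l carried a pseudogene biotype. Of the 87, 85 passed the filter on low counts and were tested, and Rpl39l and Rpl3l did not.

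The cells came from cortex of C57BL/6 mice at P0 and had been separated by flow cytometry with antibodies to CD31, an endothelial surface protein, and CD45, a blood cell surface protein. Control cells were Pd1fl/fl, in which both Pdcd1 alleles carry loxP sites and no Cre is named, and the sample titles call them wild type. Pd1cKO-Tie2 cells carried the same floxed alleles together with Tie2-Cre, a transgene that is active in endothelium and, as is known for this driver, also in blood cells. There were 2 libraries per genotype, numbered 1 and 2 here as in the columns of the tables. The number 2 of the Pd1cKO-Tie2 column matches no sample title, so the numbers serve as names only. Nothing in the labels ties a library to a single animal, so p-values measure only the spread between these libraries.

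A ribosome joins a large subunit, which forms peptide bonds, to a small subunit, which reads the messenger RNA. Each of the core proteins is present in 1 copy per ribosome, apart from the acidic stalk proteins, so the members are known as a set made in step with each other. Many of their messenger RNAs begin with a terminal oligopyrimidine tract, a C followed by a run of C and T at the start of transcription, through which mTORC1 signalling controls their translation. RNA levels, the quantity measured here, do not show that translational control.

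Library totals ran from 13715837 to 24147311 counts, and Pd1cKO-Tie2 library 1 was the deepest. Pdcd1 itself had 32 counts in Pd1fl/fl library 1 and 0 counts in each of the other 3 libraries, so its loss could not be checked at this depth. The same Pd1fl/fl library held 531 counts of S100a8, a neutrophil gene, against 7, 5 and 13 in the others. The endothelial markers Cldn5, Flt1, Cdh5, Kdr, Pecam1 and Tek were well counted in all libraries. Like 17.7% of all tested genes, each of the 6 had both its Pd1cKO-Tie2 values above its Pd1fl/fl values. Their summed level was 8093 and 7334 CPM (counts per library, scaled to a common library size) in Pd1fl/fl against 9689 and 10310 CPM in Pd1cKO-Tie2. The summed level of 4 microglial markers was 1249, 1668, 522 and 1155 CPM in the order Pd1fl/fl 1, Pd1fl/fl 2, Pd1cKO-Tie2 1 and Pd1cKO-Tie2 2, and that of 4 astroglial markers was 726, 735, 489 and 361 CPM. In edgeR's test, 4 of the 6 endothelial markers had an unadjusted p of 0.05 or less, all higher in Pd1cKO-Tie2. So did 3 of the 4 astroglial and 1 of the 4 microglial markers, all lower, against 6.39% of all tested genes. The part of cell make-up in the genotype comparison was not tested. All CPM values here are scaled by trimmed mean of M-values (TMM) unless stated otherwise.

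To see whether the members carry the tract at the DNA level, the starts of RefSeq transcripts in GRCm38.p6 were read. Of the 87 members 63 had an entry, with 75 starts between them. A C at the start base followed by at least 4 bases of C or T was present at 13 of the 75 starts (17.3%), against 2.51% of all 32851 starts in that table. When the run was allowed to begin within 10 bases on either side of the start, the shares were 53.3% and 30.7%. By subunit the strict match was found at 7 of 46 large and 6 of 29 small subunit starts. Only the gene's own strand was searched, and a match is a description of these letters. Windows of 30 bases around 6 of the 13 starts are shown to make the tract visible, 3 of each subunit, with the pyrimidine run from the start base in capitals.
Rpl15: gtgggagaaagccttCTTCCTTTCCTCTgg
Rpl38: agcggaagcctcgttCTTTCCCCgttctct
Rplp2: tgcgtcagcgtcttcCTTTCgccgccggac
Rps6: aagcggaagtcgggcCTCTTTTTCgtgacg
Rps18: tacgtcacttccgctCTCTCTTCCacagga
Rps27: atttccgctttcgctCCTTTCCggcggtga
The windows lie at chr14:18270972-18271001 (minus strand) for Rpl15, chr11:114668565-114668594 (plus strand) for Rpl38, chr7:141447636-141447665 (plus strand) for Rplp2, chr4:86857353-86857382 (minus strand) for Rps6, chr17:33955651-33955680 (minus strand) for Rps18 and chr3:90213634-90213663 (minus strand) for Rps27. Each holds 15 bases before the start and 15 bases of the first exon, read 5′ to 3′ on the gene's strand.

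Members differed from each other far more than from library to library. Levels between genes are given as CPM per kilobase of annotated exon. Rpl4, a large subunit protein near the peptide exit tunnel, stood highest at 932 and 733 CPM per kilobase in Pd1fl/fl against 866 and 848 in Pd1cKO-Tie2. Rplp0, the base of the P-stalk that recruits elongation factors, followed at 597, 471, 591 and 578 CPM per kilobase in the order given above. Next came Rps3a1 with a mean of 482, Rps6 with 421 and Rpl6 with 201 CPM per kilobase. By this measure Rpl4 exceeded Rplp0 in every library, and the ranges of Rps3a1 and Rps6 overlapped. The exon length pools all annotated transcripts of a gene, at 2007 bases for Rpl4 and 1659 for Rplp0. Their median transcripts have 1538 and 854 bases, and the order with that length was not computed. By counts, the 5 leading members (Rpl4, Rplp0, Rps6, Rpl6 and Rps3) together took 46.7% and 45.5% of all member counts in Pd1fl/fl against 48.6% and 44.0% in Pd1cKO-Tie2.

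At the other end, 21 of the 87 members had a mean below 10 CPM. Rpl13a, a large subunit protein whose gene is a common reference in quantitative PCR, was listed with 4, 11, 5 and 11 counts. Rpl39, which lines the exit tunnel, had 7, 18, 12 and 30 counts, and Rps29, a small zinc-binding protein of the small subunit, had 25, 24, 15 and 20. Outside the symbol rule, Fau, a fusion that yields a small subunit protein, had 954, 886, 1111 and 1078 counts, and Rack1, a scaffold on the small subunit head, had 2193, 1667, 3765 and 2343. Among tested members, pseudogenes and paralogs included, the mean level per kilobase of annotated exon spanned 3463-fold. The low end is Rpl13a, with few counts and 2114 bases of exon against a median transcript of 495. The span is one of RNA counts and does not measure protein numbers.

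**Figure D1:**
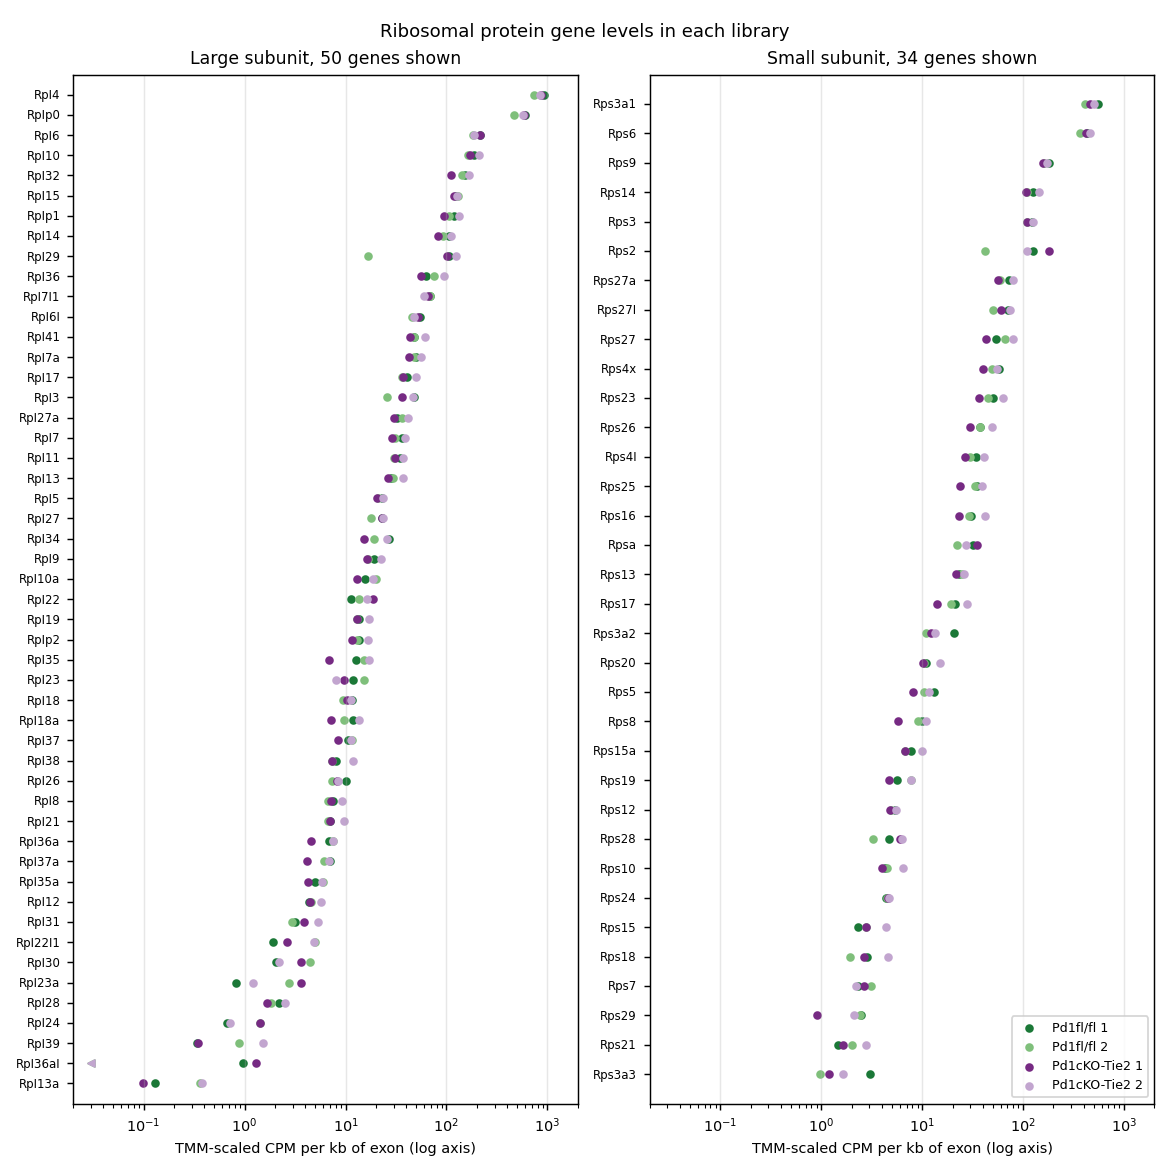
Level of the tested members in each library, 50 of the large and 34 of the small subunit (1 further tested small subunit gene is not drawn), as TMM-scaled CPM per kilobase of exon on a log axis, with genes ordered by their mean within each subunit and 1 point per library. A triangle at the left edge marks a library with 0 counts. The 4 points of a gene lie close together compared with the distance between Rpl4 at the top and Rpl13a at the bottom of the large subunit, and the single point far to the left for Rpl29 and for Rps2 is Pd1fl/fl library 2.

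The level of a member went with the median length of its transcripts. The 25 members with a median annotated transcript below 600 bases had a median of 10.5 CPM, the 34 from 600 to under 900 bases 37.2 CPM, and the 28 at 900 bases or more 73.5 CPM. Per kilobase the medians were 6.05, 15.5 and 33.3. Across the 85 tested members Spearman's rho between transcript length and CPM was 0.50, and between length and CPM per kilobase it was 0.40. With the summed exon length that the per-kilobase scaling uses, rho was 0.34 with CPM and 0.01 with CPM per kilobase, so the relation per kilobase depends on which length is taken. These points share libraries and a length-dependent count, so the rho describes the table only. Of the 21 members below 10 CPM, 12 were in the shortest class. The share of sequence found in other genes had a rho of -0.01 with CPM and 0.16 with CPM per kilobase. It was taken over all annotated transcripts of a gene, so it need not be that of the main messenger RNA. These values therefore cannot show whether shared sequence lowered the counts of a member. A median of 23.7% of the 50-base stretches of a member's transcripts occurred in another gene's transcripts, and 84 of 87 members shared at least 1 stretch with an annotated pseudogene. How reads that fit several places were counted is not given in the sources used here.

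The order of the members was kept from library to library: Spearman's rho between libraries over the 85 members ran from 0.97 to 0.99, against 0.93 to 0.94 over all tested genes. The 2 sets differ in level, with a median of 39.3 CPM over the tested members and 16.8 CPM over all tested genes. No set of like level was compared.

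Deletion of Pd1 left no member past the test. With edgeR's quasi-likelihood test, 0 of 85 members reached a fold of at least 2 with a p of 0.05 or less, a criterion that 4.02% of the 15909 tested genes met. The number of members with an unadjusted p of 0.05 or less was also 0, against 6.39% of all tested genes. With p adjusted by Benjamini-Hochberg across the 15909 genes 0 members passed, as did 0.0% of all genes, and the smallest adjusted p of a member in edgeR was 0.91, for Rpl22. DESeq2 and limma-voom also gave 0 members with an unadjusted p of 0.05 or less, and of the 116 genes that DESeq2 called after adjustment 0 were members. Of the 85 members 56 had a fitted value above 0 and 29 below, and 78 lay within 1.5-fold either way. Of all 15909 tested genes 7888 had a fitted value above 0 and 8021 below, and 10686 lay within 1.5-fold. The median log2 fold change of Pd1cKO-Tie2 over Pd1fl/fl was 0.04 over the members and -0.0038 over all tested genes. The median standard error of a member was 0.34 on the log2 scale, so that for most members a change well under 2-fold was not detectable with 2 libraries per genotype. For members with larger errors, such as Rps28 at 0.53 and Rpl31 at 0.63, even a fitted 2-fold change would not have been called.

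The subunits gave close values. The median log2 fold change was 0.05 over the 50 tested large subunit genes and 0.04 over the 35 small subunit genes, a difference of 0.0029, with a spread of 0.036 between libraries of a genotype. In counts, the large subunit made up 0.642% and 0.558% of the library in Pd1fl/fl against 0.585% and 0.611% in Pd1cKO-Tie2. The small subunit made up 0.386% and 0.332% against 0.344% and 0.388%. Each Pd1cKO-Tie2 value for the large subunit lay between the 2 Pd1fl/fl values. Summed, the members took 0.959% ± 0.098 (SD, n = 2) of counts in Pd1fl/fl and 0.964% ± 0.049 (SD, n = 2) in Pd1cKO-Tie2 (exact permutation test, two-sided, p = 1.0). Counting error was smaller than the differences between libraries of a genotype, though not than the difference of the genotype means: the 95% Wilson interval was 1.02% to 1.03% in Pd1fl/fl library 1 and 0.885% to 0.895% in Pd1fl/fl library 2. The smallest p that the permutation test can give with 2 against 2 libraries is 0.33. The log2 ratio of large to small subunit counts was 0.73 and 0.75 in Pd1fl/fl against 0.77 and 0.66 in Pd1cKO-Tie2, a difference in means of -0.030 (exact permutation test, two-sided, p = 1.0). The lowest ratio, in Pd1cKO-Tie2 library 2, stood further from its partner library than the genotype means from each other.

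**Figure D2:**
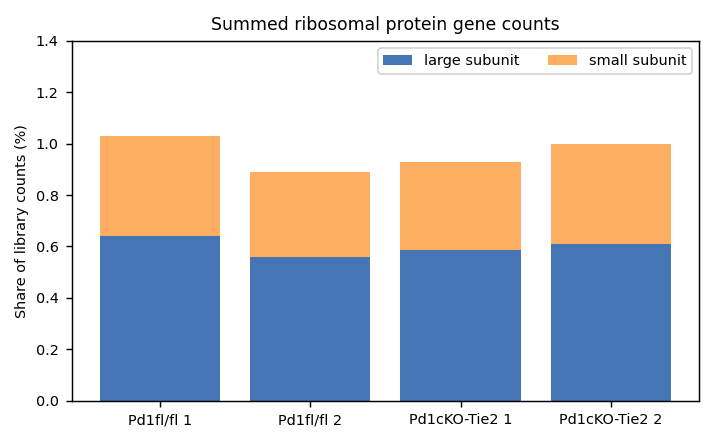
Summed counts of the 52 large and 35 small subunit genes in each library, as a percentage of the library's total counts, with 1 bar per library and the small stacked on the large subunit. The bars reach 1.03% and 0.890% in Pd1fl/fl against 0.929% and 0.999% in Pd1cKO-Tie2, so both Pd1cKO-Tie2 libraries lie inside the Pd1fl/fl range.

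**Figure D3:**
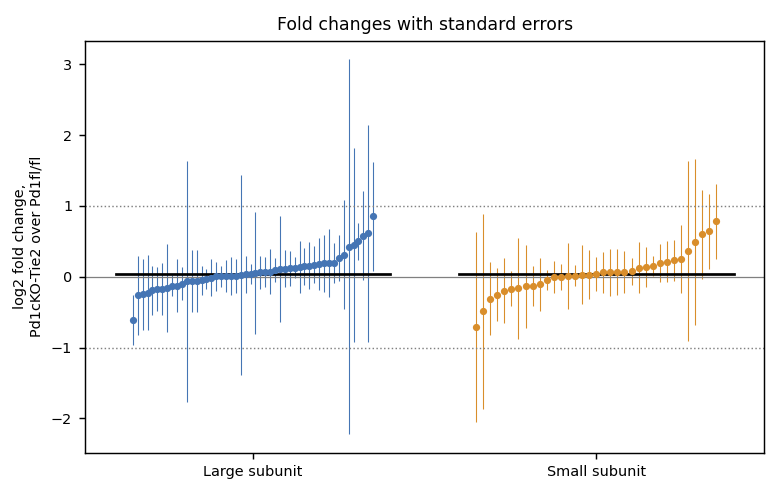
Fitted log2 fold change of each tested member with its standard error, ordered within each subunit, with black lines at the medians and dotted lines at a 2-fold change. The points run from -0.71 to 0.85 and none reaches a dotted line, and the longest error bars belong to members with few counts such as Rpl36al, Rpl13a and Rpl39.

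The highest fitted values belonged to members that were low in 1 control library or rarely counted. Rpl29, a basic protein at the surface of the large subunit, measured 120 and 18.98 CPM in Pd1fl/fl against 113 and 138 CPM in Pd1cKO-Tie2, a log2 fold change of 0.85 ± 0.77 (SE). Rps2, a small subunit protein at the mRNA entry channel, measured 230 and 75.9 CPM in Pd1fl/fl against 328 and 199 CPM in Pd1cKO-Tie2, a log2 fold change of 0.79 ± 0.53 (SE). For both genes the genotypes overlapped and Pd1fl/fl library 2 alone was low, while Pd1fl/fl library 1 lay inside the Pd1cKO-Tie2 range. Without Pd1fl/fl library 1 the fit called both, at a log2 fold change of 2.73 for Rpl29 and 1.80 for Rps2. Without Pd1fl/fl library 2 the fitted values were 0.07 for Rpl29 and 0.20 for Rps2, and neither was called. Rpl3, which shapes the peptidyl transferase centre, was also lowest in Pd1fl/fl library 2, at 81.2 CPM against 153 CPM in Pd1fl/fl library 1 and 114 and 147 CPM in Pd1cKO-Tie2.

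These genes have many copies in the genome. Transcripts of Rpl29 shared 50-base stretches with 81 pseudogenes, those of Rps2 with 71 and those of Rpl3 with 26. Other members shared as many, with 120 for Rpl7a and 81 for Rpl21. The highest library exceeded the lowest 1.31-fold for Rpl7a and 1.43-fold for Rpl21, against 7.29-fold for Rpl29, 4.32-fold for Rps2 and 1.88-fold for Rpl3. Across the 85 tested members the number of such pseudogenes had a Spearman's rho of -0.07 with the deviation from the member's own mean in Pd1fl/fl library 2. The 2 listed Rpl3 pseudogenes, by symbol, had 134, 337, 231 and 137 counts in the same order of libraries, highest where Rpl3 was lowest. The 6 listed Rps2 pseudogenes had 190, 324, 287 and 773 counts, highest in Pd1cKO-Tie2 library 2 and second highest where Rps2 was lowest. Whether reads moved between gene and copy was not tested, and the values of these members are uncertain to that extent.

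Rps28, Rpl39 and Rps18 followed, with log2 fold changes of 0.64 ± 0.53, 0.61 ± 1.54 and 0.60 ± 0.63 (SE). Rps28, near the exit channel for mRNA, was counted at 8.03 and 5.62 CPM in Pd1fl/fl against 10.4 and 10.9 CPM in Pd1cKO-Tie2, so its genotypes did not overlap. The lowest fitted values were those of Rps29 at -0.71 ± 1.34, Rpl23 at -0.61 ± 0.35, the pseudogenes Rps3a3 at -0.49 ± 1.38 and Rps3a2 at -0.31 ± 0.51, and Rpl37a at -0.26 ± 0.56 (SE). Rpl23, a large subunit protein that is also known to bind Mdm2, measured 20.97 and 27.2 CPM in Pd1fl/fl against 17.1 and 14.3 CPM in Pd1cKO-Tie2. In edgeR its unadjusted p was 0.14 and its adjusted p 0.93.

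Of the P-stalk genes, Rplp0 had a log2 fold change of 0.13 ± 0.15, Rplp1 of 0.0098 ± 0.27 and Rplp2 of 0.07 ± 0.32 (SE). Rps6, the small subunit protein that is phosphorylated downstream of mTORC1, measured 684 and 580 CPM in Pd1fl/fl against 668 and 735 CPM in Pd1cKO-Tie2, a log2 fold change of 0.15 ± 0.14 (SE). Rpsa, a small subunit protein also known as the laminin receptor precursor, measured 100.4 and 70.3 CPM in Pd1fl/fl against 110.1 and 85.3 CPM in Pd1cKO-Tie2, a log2 fold change of 0.20 ± 0.26 (SE). In each of these genes the genotypes overlapped.

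The libraries of 1 genotype differed more than the genotypes did. In 52 of the 85 tested members (61.2%) Pd1cKO-Tie2 library 2 was the highest of the 4 libraries, against 24.9% of all tested genes. In 46 (54.1%) Pd1cKO-Tie2 library 1 was the lowest, against 24.3%. Both held at once for 34 members (40.0%), against 7.13% of all tested genes. Library 2 exceeded library 1 of Pd1cKO-Tie2 in 71 of 85 members (83.5%), against 49.1% of all tested genes, with a median difference of 0.42 on the log2 scale. In Pd1fl/fl, library 1 exceeded library 2 in 57 of 85 members (67.1%), against 48.8% of all genes, with a median difference of 0.13. The members share the libraries and are not independent of each other, so these counts carry no test.

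Both subunits took part. The median deviation of a member from its own mean was -0.15 in the large and -0.18 in the small subunit in Pd1cKO-Tie2 library 1, and 0.21 and 0.25 in Pd1cKO-Tie2 library 2. Members with under 20% shared stretches had the same order, with medians of -0.18 and 0.25. The summed share moved less, from 0.929% to 0.999%, and Rpl4, Rplp0 and Rpl6, which hold many of the counts, went the other way, with 1739 and 1701 CPM for Rpl4. Members with a strict pyrimidine start had a median difference between the Pd1cKO-Tie2 libraries of 0.56 (13 tested), and the other members with a RefSeq start had 0.29 (48 tested). Their median levels differed as well, at 18.6 and 47.9 CPM. Beside this, the erythroid markers summed to 634 and 549 CPM in Pd1fl/fl against 567 and 1060 CPM in Pd1cKO-Tie2, so that they too were highest in Pd1cKO-Tie2 library 2. The microglial sum was lowest in Pd1cKO-Tie2 library 1. Other marker sums were lower in Pd1cKO-Tie2 library 2 than in library 1. They were 149 and 78.7 CPM for the oligodendroglial, 489 and 361 for the astroglial and 799 and 743 for the neuronal markers, in the order 1 and 2. The pericyte sums were close, at 3633 and 3652 CPM. The part of other cells, depth or RNA quality in the order of the libraries was not tested.

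**Figure D4:**
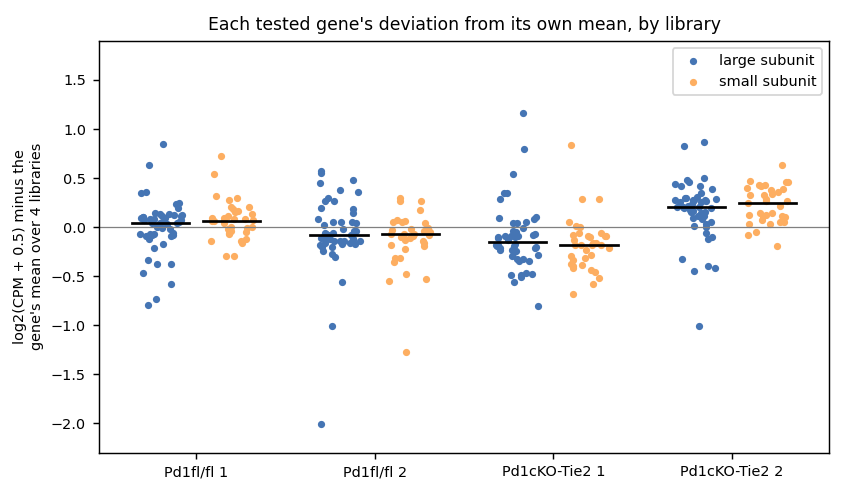
Deviation of each tested member from its own mean over the 4 libraries, as log2 of TMM-scaled CPM plus 0.5, by library and subunit, with 1 point per gene and black lines at the medians. In both subunits the medians are lowest in Pd1cKO-Tie2 library 1 and highest in Pd1cKO-Tie2 library 2, with both Pd1fl/fl libraries between them, and the point lowest of all is Rpl29 in Pd1fl/fl library 2.

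With the libraries of 1 genotype at both ends, few members separated the genotypes. Both Pd1cKO-Tie2 values exceeded both Pd1fl/fl values for 5 of 85 members (Rpl22, Rpl27, Rpl31, Rps24 and Rps28), against 17.7% of all tested genes. Both lay below for 4 members, among them Rpl23, Rpl7l1 and Rps29, against 18.1%. Together these were 10.6% of the members and 35.8% of all tested genes. The member with the smallest p in edgeR was Rpl22, a large subunit protein without which mice are known to be viable, at 32.9 and 39.2 CPM in Pd1fl/fl against 54.5 and 47.5 CPM in Pd1cKO-Tie2. Its log2 fold change was 0.50 ± 0.26 (SE), and edgeR gave an unadjusted p of 0.11.

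Several members have a paralog that can take their place in the ribosome or is copied from them. Paralog shares were taken from levels per kilobase as the paralog's part of the pair. The size of a share depends on the annotated exon length, so shares are to be compared between libraries only. That length was 1989 bases for Rpl22l1 and 2911 for Rpl22, with median transcripts of 552 and 2048 bases. For Rps27l and Rps27 it was 816 and 1043 bases, with median transcripts of 499 and 452. Rpl22l1, the paralog of Rpl22, made up 14.5% and 27.1% of its pair in Pd1fl/fl against 12.3% and 22.9% in Pd1cKO-Tie2. Rps27l, a paralog of Rps27 known as a p53 target, made up 57.0% and 43.3% against 58.4% and 48.2%. In both pairs the genotypes overlapped, and the libraries numbered 1 lay on 1 side and those numbered 2 on the other. Rpl36al, a paralog of Rpl36a whose annotated gene holds no intron, showed the same split in the extreme, with 19 and 42 counts in the libraries numbered 1 and 0 counts in both libraries numbered 2. A count of 0 allows a level of up to 0.211 CPM in Pd1fl/fl library 2 and 0.219 CPM in Pd1cKO-Tie2 library 2, below the 1.32 and 1.75 CPM of the others. The sample titles hold no Pd1cKO-Tie2 library numbered 2, and the labels do not say what the column numbers mark. Over all tested genes the deviations of same-numbered libraries correlated at -0.02 (Pearson). Whether this split is more than spread between libraries was not tested.

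Rpl7l1, a paralog of Rpl7 that is known to act in ribosome assembly, took 65.5% and 69.0% of its pair in Pd1fl/fl against 69.4% and 61.0% in Pd1cKO-Tie2. Rps4l, a transcribed copy of Rps4x, took 37.4% and 38.0% against 39.8% and 42.7%, so its genotypes did not overlap, which with 2 against 2 libraries cannot give a permutation p below 0.33. Rpl39l, known from testis, was listed with 0, 15, 0 and 1 counts, and Rpl3l, known from striated muscle, had 0, 3, 0 and 1. No value for Rpl10l was analysed here.

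**Figure D5:**
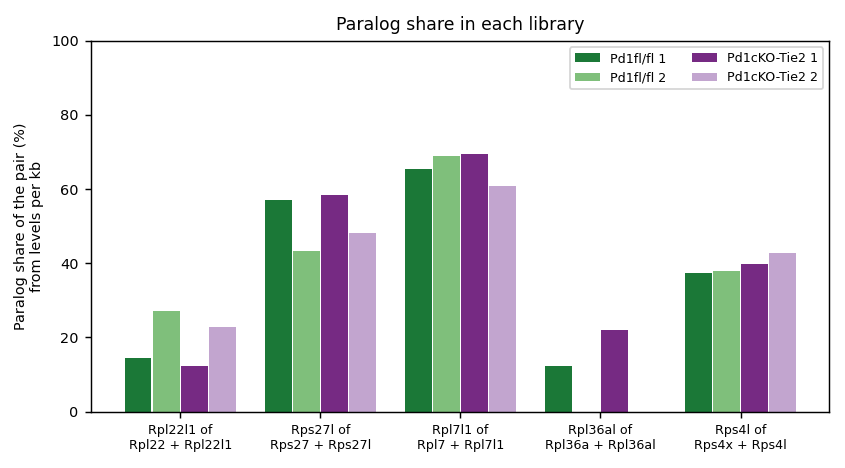
Share of the paralog in the summed level of its pair, in percent, for 5 pairs in each library, computed from CPM per kilobase of exon, with 1 bar per library. For Rpl22l1, Rps27l and Rpl36al the bars alternate between the libraries numbered 1 and 2 of each genotype, and the bars for Rpl36al in the libraries numbered 2 are at 0.

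The genes that build, regulate or resemble the ribosome were compared by the same fit. Of 76 mitochondrial ribosomal protein genes, all tested, 1 had an unadjusted p of 0.05 or less, against 6.39% of all tested genes, with a median log2 fold change of 0.04 over the list. It was Mrpl46, at 59.9 and 60.9 CPM in Pd1fl/fl against 98.3 and 79.4 CPM in Pd1cKO-Tie2. The fold criterion was met by 4.02% of all tested genes, and a single call in a list of this size is no result about the list. Of 47 ribosome biogenesis factors 1 passed it, Rrs1, which helps to assemble the 5S particle of the large subunit. It measured 27.1 and 28.7 CPM in Pd1fl/fl against 53.6 and 67.3 CPM in Pd1cKO-Tie2, a log2 fold change of 1.11 ± 0.27 (SE), and the median of the list was -0.06. Of 14 genes of RNA polymerase I and rDNA transcription 1 passed, Polr1e, a subunit of that polymerase, at 15.6 and 8.86 CPM against 26.4 and 27.5 CPM. Among 36 tested initiation factors, 10 tested elongation and termination factors and 16 other genes known for an oligopyrimidine start, 0 had a p of 0.05 or less in edgeR, and the list medians were 0.07, 0.05 and 0.03. The smallest adjusted p among all these genes was 0.735 in edgeR.

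Of the regulators, 1 of 22 tested genes of mTORC1 signalling and translational control had an unadjusted p of 0.05 or less (6.39% of all tested genes did), Larp4, an RNA-binding protein that stabilises ribosomal protein mRNA. It measured 73.2 and 75.1 CPM in Pd1fl/fl against 115 and 117 CPM in Pd1cKO-Tie2, a log2 fold change of 0.64 ± 0.19 (SE). Of 11 genes of the Myc network 1 passed the criterion, which 4.02% of all tested genes met, Max, the partner with which Myc binds DNA, at 69.4 and 53.9 CPM against 201 and 163 CPM. Of 12 genes of the p53 response to ribosomal stress 1 had an unadjusted p of 0.05 or less, Mdm4, an inhibitor of p53, at 102 and 62.5 CPM against 51.1 and 44.8 CPM. None of these passed adjustment over all tested genes in edgeR's test, where the smallest adjusted p of any gene was 0.735. The library order of the cytosolic members was not that of these lists in equal measure. Pd1cKO-Tie2 library 2 was highest for 27 of 76 mitochondrial ribosomal protein genes and for 10 of 36 initiation factors. It was also highest for 4 of 10 elongation and termination factors and 6 of 16 other oligopyrimidine genes, against 24.9% of all tested genes. Pd1cKO-Tie2 library 1 was lowest for 25, 7, 4 and 6 genes of these lists in the same order, against 24.3%. The initiation factors were most often lowest in Pd1fl/fl library 2 (20 of 36), against 25.2%. This difference between lists was not tested.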

How the data were processed

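RNA of sorted cells was extracted with TRIzol, libraries were sequenced on an Illumina instrument, and the authors deposited 4 pairwise tables with raw counts per gene and CPM for each library. Per the labels, reads were processed with Bowtie2 2.2.3, TopHat2 2.0.12 and HTSeq 0.6.0. The submitters' notes name build mm9, but 90.0% of the gene positions in the tables equal those of GENCODE M21 (GRCm38). The strand setting is not given in the sources used here. The deposited CPM served only to recover library totals. Fold changes, p-values and q-values of the authors' own comparisons were not used.

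Tables were joined by gene, and counts agreed between tables for every gene. Lines of overflowing annotation text (5 in each of 2 tables) were skipped, and 23 symbols turned into dates were restored. The column numbered 2 of Pd1cKO-Tie2 carries a number that no sample title of that group has. It was assigned to the group only, and its column number is kept as a name and, in 1 alternative, as the block. Members and gene lists were chosen with earlier results of these data known. The members named are the paralog pairs, the P-stalk genes, Rps6, Rpsa, the 5 highest and 5 lowest fitted fold changes, the 5 highest levels per kilobase, members that failed the filter, and up to 4 members with an unadjusted p of 0.05 or less in each related list. Rpl3, Rpl13a, Rpl22 and Rpl36al's counts, and the members whose genotypes did not overlap, were described after their values were seen. Genes were filtered with filterByExpr by genotype, scaled by TMM and tested with edgeR 4.0.16 (glmQLFit, glmQLFTest, no covariate) in R 4.3.3. The criterion, a fold of 2 and p of 0.05, is that of the study's methods. The common biological coefficient of variation was 0.61. The code was tested on simulated data. Alternatives were DESeq2 1.42.0, limma-voom 3.58.1, other scalings and filters, a replicate block, leaving out each library, and members with under 20% shared stretches. Single values were compared by exact permutation tests (scipy 1.17.1). Transcript lengths and shared stretches came from GENCODE M21. With a count floor of 3, a count of 0 allows 0.125 to 0.219 CPM, which covers counting error only. Some genes are not reported by name here.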

Additional observations from a re-analysis of the deposited data

How the results depend on the processing

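The count of members past the fold criterion was 0 under every setting that kept all 4 libraries, and with 1 library left out it was 0 to 2. The members gained were Rpl29 and Rps2, without Pd1fl/fl replicate 1, where the other Pd1fl/fl library stands alone and is assumed to vary like the others. The count with an unadjusted p of 0.05 or less was 0 except with the replicate block (1, Rps2, log2 fold change 0.95) and was 0 to 3 with 1 library left out, with Rpl3 the third. The numbers in the columns are not known to mark pairs, and the number 2 of the Pd1cKO-Tie2 column matches no sample title. Over all tested genes the deviations of same-numbered libraries correlated at -0.02 and over the members at 0.23, and the block changed no other count of members. The median log2 fold change of the members ranged from -0.12 (without Pd1cKO-Tie2 replicate 2) to 0.22 (without Pd1cKO-Tie2 replicate 1), and was -0.02 with library size scaling, which moved the median of all genes to -0.07. The difference of the medians, large minus small subunit, was 0.044 with limma-voom and with 1 library left out lay between -0.055 (without Pd1fl/fl replicate 1) and 0.054 (without Pd1cKO-Tie2 replicate 2). The difference in summed share (Pd1cKO-Tie2 minus Pd1fl/fl, 0.0044 percentage points) turned sign with libraries left out, from -0.065 to 0.074, as did that in the log2 ratio of the subunits, from -0.084 to 0.025. Both also turned with members of under 20% shared stretches only, to -0.0091 and 0.013. The number of members whose genotypes do not overlap was 8 or 9 under the other scalings. Of 32 named and tested genes, 8 changed the sign of a fold change in 19 of 254 values under settings that kept all libraries, all of at most 0.113 in size on the log2 scale, and 22 did so when a library was left out. Depth limits the members below 10 CPM, which had the largest standard errors, such as 2.65 for Rpl36al and 1.70 for Rpl13a. Standard errors exceeded most fitted changes at higher levels as well, as for Rpl4 at 0.04 ± 0.14 (SE).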
